A study of Mus musculus with 12 samples.

Results

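The Myc family of transcription factors was examined at 4 mouse genes, Myc, Mycn, Mycl and Bmyc, out of 21887 protein-coding genes, in bone marrow progenitors that had or had lost Ints11. The members were selected on their peaks and covered lengths in these same 8 lists, as a family whose values were known. For each gene, the peaks of 2 histone marks were taken where they lay within 10 kb of the gene span in mm10. The values below that fall in this window are therefore a description, and no test was run on them.

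Marrow of C57BL/6 mice was sorted for cKit after lineage-positive cells were removed, which gives a fraction rich in blood stem and progenitor cells. The knockout group (Ints11_KO, called KO) came from 2 mice with Mx1Cre and floxed Ints11 alleles, KO_399 and KO_401. The wild-type group (Ints11_WT, called WT) came from 2 littermates, WT_407 and WT_409. All mice had received poly(I:C), which raises interferon and so turns on Mx1Cre, and the cells were sorted 4 days later. Mx1Cre acts in every cell that answers to interferon, not in blood cells alone, and the ages and the Mx1Cre status of the WT littermates are not given in the sources used here. Ints11 is the catalytic subunit of Integrator, a complex that cleaves nascent RNAs. The names were read as single mice, since the series design gives 2 mice per genotype.

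Myc proteins are basic helix-loop-helix leucine zipper factors that pair with Max and bind E-box sequences, where they raise the transcription of genes for growth, ribosome production and metabolism. In blood, Myc and Mycn together are needed for stem cell survival and for the balance between self-renewal and differentiation. Mycn is best known from neural and other embryonic progenitors, and Mycl from dendritic cells and lung. Bmyc is a rodent gene whose protein resembles the amino-terminal part of Myc and lacks the zipper domain that binds Max and DNA. H3K4me3 marks active or poised promoters, and H3K27me3 is laid down by Polycomb complex 2 at silent ones. A promoter with both is called bivalent.

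The libraries differed before any gene was considered. H3K27me3 peaks covered 15.2 Mb in KO_399 and 23.1 Mb in KO_401, against 34.5 Mb in WT_407 and 31.5 Mb in WT_409. KO_399 stood lowest in H3K27me3 and highest in H3K4me3, with 44.5 Mb against 36.7 to 38.6 Mb in the other 3 libraries. It also had the highest H3K4me3 background of the 4, at 2.65 reads per position against 1.93 to 2.23, a measure of depth. For H3K27me3 the background was 3.30 and 3.67 reads in KO_399 and KO_401, and 3.09 and 3.15 in WT_407 and WT_409. Every listed peak had a fold over background above 5, so that a gene without a listed peak may still have had a weaker one. H3K4me3 lay within 10 kb of 6 of 6 progenitor markers, among them Kit and Gata2, in every library. WT_409 alone had H3K4me3 at Il7r, a receptor of early lymphoid cells, and at Slc4a1, Hbb-bs and Hbb-bt, genes of red cells. At 6 B cell markers, its summed length was 28960 bp, against 20907 bp in KO_399, 12116 bp in KO_401 and 10150 bp in WT_407. WT_409 also led at 6 mature myeloid markers, with 68774 bp, against 57815 bp in KO_399, 49054 bp in KO_401 and 35613 bp in WT_407. Of the 6 B cell markers, 5 and 4 had a peak in KO_399 and KO_401, and 4 and 6 in WT_407 and WT_409. Of 6 red cell markers, 3 had one in KO_399, KO_401 and WT_407, and 6 in WT_409. Among 6 T cell markers, Cd3e, Cd8a and Trat1 had none in any library, and 2 or 3 of the others had one in each. Of 6 stromal and endothelial markers, 6 and 5 had one in KO_399 and KO_401, and 6 and 5 in WT_407 and WT_409. Their summed length was 14637 bp in KO_399 and 8469 bp in KO_401, against 8428 bp in WT_407 and 8326 bp in WT_409. Pecam1 and Cxcl12, 2 of the 6, were longer in both KO libraries and 0 were shorter, beside 21.7% and 3.54% of all genes with the mark. A smaller share of cells with a mark and less of the mark in each cell cannot be told apart in such pooled cells. At Ints11 itself H3K4me3 covered 9694 and 7797 bp in KO_399 and KO_401, and 6916 and 7080 bp in WT_407 and WT_409. This checks no label, because a floxed gene can keep its promoter.

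Within the 10 kb windows, 34 peaks were found over the 8 lists. Only 2 of them, H3K27me3 peaks just upstream of Mycn, did not touch the gene span, and the nearest peak outside a window lay 11.5 kb from Mycl. The 4 genes fell into distinct states. Myc carried H3K4me3 alone, Mycn and Mycl carried both marks in every library, and Bmyc carried both in WT only. H3K27me3 was thus listed in all 4 libraries at 2 of the 3 members that had it, beside 63.0% of 7375 genes with the mark. H3K4me3 was listed in all 4 libraries at 4 of 4 members, beside 93.2% of the 15693 genes with that mark in any library. Covered length, used below, is the number of bases under peaks of a mark within the window.

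**Figure D1:**
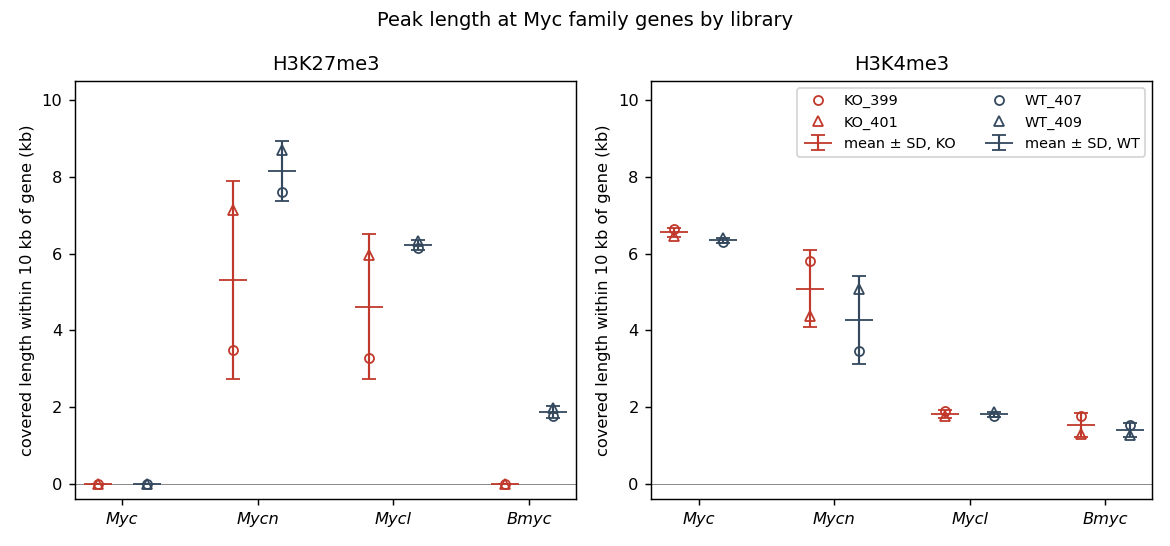
Covered length of H3K27me3 (left) and H3K4me3 (right) within 10 kb of each Myc family gene, in kb, with KO left of WT at each gene. Open symbols are single libraries and bars the mean ± SD of 2 libraries. H3K27me3 was lower in both KO libraries at Mycn, Mycl and Bmyc and was at 0 in all libraries at Myc, and the H3K4me3 values of KO and WT overlapped at all members but Myc.

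Myc lies on chromosome 15 from 61985341 to 61990361. H3K27me3 was not listed in its window in any of the 4 libraries. A single broad H3K4me3 domain covered nearly the whole gene. It was 6633 bp in KO_399 and 6467 bp in KO_401, against 6294 bp in WT_407 and 6395 bp in WT_409, where it was split into peaks of 5040 and 1355 bp. Both KO values were above both WT values, but the groups were only 72 bp apart. The means were 6550 ± 117 bp in KO and 6345 ± 71.4 bp in WT (SD, n = 2 each), so KO stood at 103% of WT. The median of all 14779 genes with H3K4me3 in both WT libraries was 105%. The domain began 1982, 1977, 1918 and 1937 bp below the lower end of the span in KO_399, KO_401, WT_407 and WT_409. It ended inside the gene in all 4.

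The domain was among the widest of each list. By width, the main Myc peak ranked at percentile 99.1 of 27676 peaks in KO_399, 99.4 of 25090 in KO_401, 99.5 of 25145 in WT_407 and 98.2 of 26279 in WT_409. Its height was less extreme. By the authors' −log10 q it ranked at percentile 74.0 in KO_399, 68.3 in KO_401, 76.8 in WT_407 and 69.9 in WT_409. The summit held 203 reads over a background of 2.65 in KO_399 and 149 over 1.93 in KO_401. In WT_407 it held 166 over 2.23, and in WT_409 153 over 1.94. These ranks describe each list by itself, since the lists differ in length. Myc was therefore a gene with wide rather than unusually tall H3K4me3 in every library.

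Mycn lies on chromosome 12 from 12936093 to 12941836 on the minus strand, with its start at the upper end. H3K27me3 covered 3491 bp in KO_399 and 7132 bp in KO_401, against 7595 bp in WT_407 and 8704 bp in WT_409. Both KO libraries were below both WT libraries, KO_401 by 463 bp and KO_399 by far more. The means were 5312 ± 2575 bp in KO and 8150 ± 784 bp in WT (SD, n = 2 each). The difference of -2838 bp is close to the SD of the KO mice. KO stood at 65.2% of WT, near the median of 59.4% over the 6286 genes with H3K27me3 in both WT libraries. By library, KO_399 had 42.8% and KO_401 87.5% of the WT mean, beside medians of 45.0% and 75.1% over those genes.

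H3K4me3 at Mycn covered 5794 bp in KO_399 and 4380 bp in KO_401, against 3459 bp in WT_407 and 5074 bp in WT_409. The groups overlapped, with means of 5087 ± 1000 bp in KO and 4267 ± 1142 bp in WT (SD, n = 2 each). KO_399 had 1 unbroken peak, KO_401 and WT_409 had 2 each, and WT_407 had 3. The part at the start site was shared by all libraries. The last H3K4me3 base lay 4813 bp downstream in KO_399 and 3853 bp in KO_401, against 4801 bp in WT_407 and 4762 bp in WT_409, so that WT_407 was short mainly through gaps between its peaks. With a minimum −log10 q of 10, and with the lists trimmed to equal covered length, the groups no longer overlapped, at means of 5087 bp in KO and 3858 bp in WT. They did not overlap either without KO_401 or without WT_409. The WT_409 value went with the high B cell and myeloid marker lengths of that library, and the KO_399 value with its depth. Their part in these values was not tested.

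The marks had separate summits at Mycn. The strongest H3K4me3 peak had its summit upstream of the start site, at -473 bp in KO_399, -490 bp in KO_401, -540 bp in WT_407 and -454 bp in WT_409. The H3K27me3 summit lay inside the gene, 1852 bp downstream of the start in KO_399, 2138 bp in KO_401, 2109 bp in WT_407 and 2074 bp in WT_409. On the upstream side, H3K27me3 reached -155 bp in KO_399, -1837 bp in KO_401, -2434 bp in WT_407 and -2651 bp in WT_409. At the far side it ended 3335 bp downstream in KO_399, against 5379, 5342 and 6052 bp in KO_401, WT_407 and WT_409. KO_399 was thus shorter at both edges of the domain. Of the bases under H3K4me3, 60.3% were also under H3K27me3 in KO_399, against 98.1% in KO_401, 94.7% in WT_407 and 100% in WT_409.

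**Figure D2:**
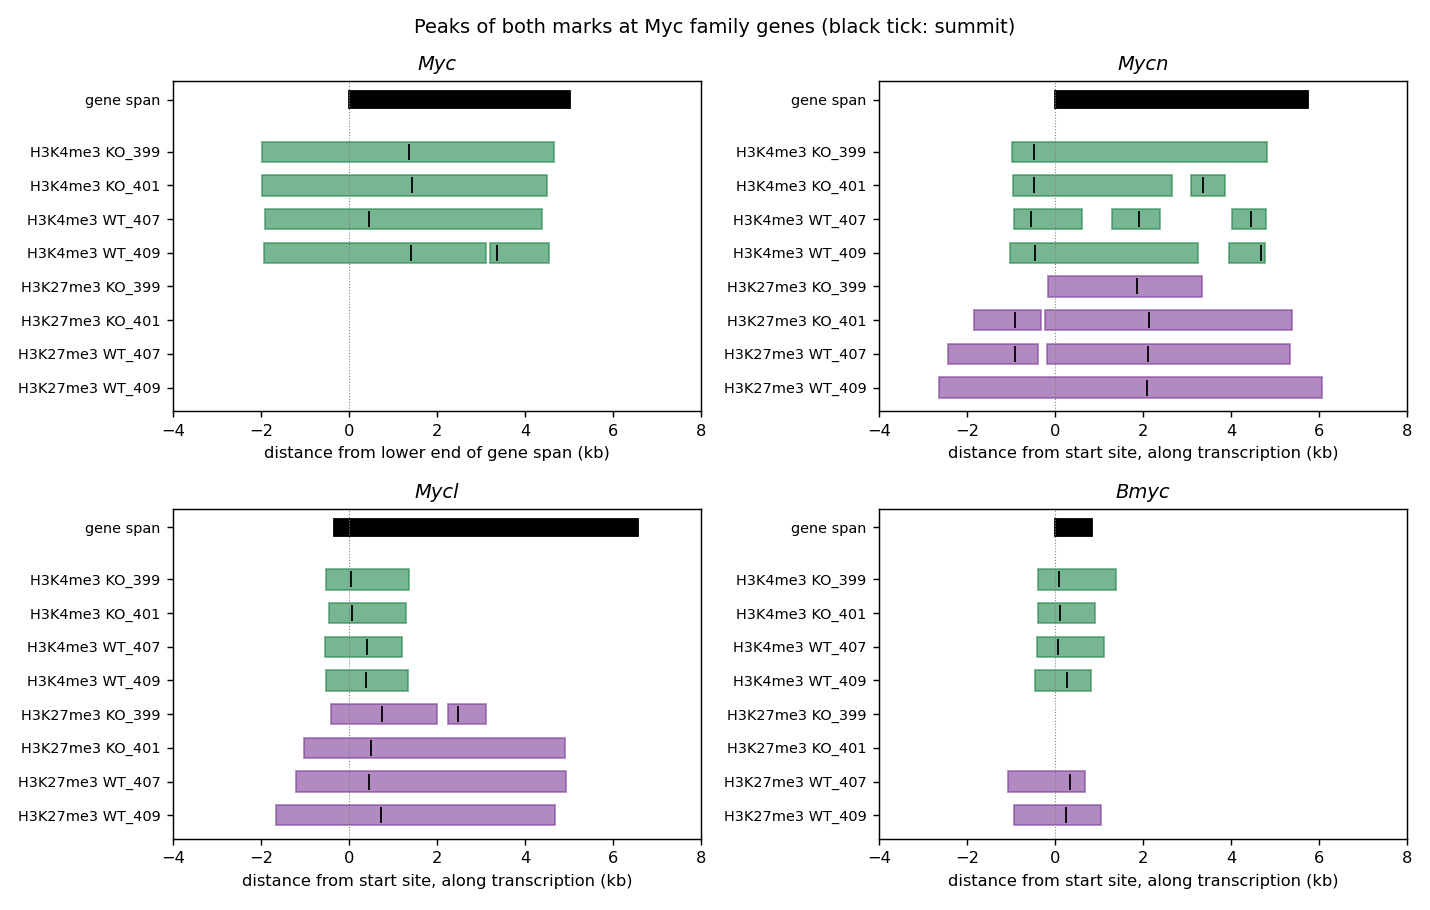
Peaks at each Myc family gene in the 8 lists, as bars along the distance in kb from the start site (from the lower end of the span for Myc), with H3K4me3 in green, H3K27me3 in purple, summits as black ticks and the gene span on top. KO rows stand above WT rows. At Mycn and Mycl the H3K27me3 bars of KO_399 are the shortest, and at Bmyc they are present in WT alone.

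Promoter sequences from RefSeq (GRCm38.p6) were found for 3 of the 4 members, Mycn, Mycl and Bmyc. They are shown because H3K27me3 over these bases differed between libraries at Mycn and Bmyc and not at Mycl. All 250 bases before the start were under H3K4me3 in all 4 libraries at these 3 genes. H3K27me3 covered 155 of the Mycn bases in KO_399 and 242 in KO_401, against 198 in WT_407 and 250 in WT_409. At Mycl it covered all 250 in each library. At Bmyc it covered none in KO_399 and KO_401 and all 250 in WT_407 and WT_409. The Mycn stretch lies at chr12:12941837-12942086 on the minus strand and the Bmyc stretch at chr2:25706629-25706878 on the plus strand. For Mycl, only the last 30 bases before the start are given, at chr4:122995901-122995930 on the plus strand. The start used for Mycl lies inside its annotated gene span, so all 250 bases before it fall within that span. Capitals mark matches to the motifs named below, and each sequence reads towards the start site.
Mycn: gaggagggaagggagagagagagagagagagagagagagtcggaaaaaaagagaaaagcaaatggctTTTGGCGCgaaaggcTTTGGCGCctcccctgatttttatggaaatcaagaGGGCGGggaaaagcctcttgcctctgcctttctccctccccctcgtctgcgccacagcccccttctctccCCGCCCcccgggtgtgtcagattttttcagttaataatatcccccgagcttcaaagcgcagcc
Bmyc: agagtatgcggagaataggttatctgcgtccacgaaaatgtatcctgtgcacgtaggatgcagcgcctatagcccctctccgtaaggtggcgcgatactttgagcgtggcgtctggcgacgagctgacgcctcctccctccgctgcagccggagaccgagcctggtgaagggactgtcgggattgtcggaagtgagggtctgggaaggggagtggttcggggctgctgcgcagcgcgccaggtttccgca
Mycl: aagccccgggcacgcgacgagaTATAAAgc

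On either strand, 5 motifs were searched in the 250 bases, namely the E-box CACGTG, the E2F sequence TTTGGCGC, the GC box GGGCGG, the CCAAT box CCAAT and the TATA box TATAAA. Mycn held 2 matches of TTTGGCGC, beginning at -183 and -168 from the start, and 2 of GGGCGG, at -133 and -63. TTTGGCGC was found in 0.437% of 27025 promoters and GGGCGG in 32.9%. Mycl held 1 TATAAA, at -8, found in 13.0% of promoters, and 1 GGGCGG, at -84, outside the printed bases. Bmyc held none of the 5. CACGTG, the site to which Myc and Max bind, was in none of the 3 and in 6.05% of all promoters, and CCAAT in none of the 3 and in 34.5%. The motifs do not overlap in these stretches. CpG dinucleotides numbered 11 at Mycn, 14 at Mycl and 23 at Bmyc, against a median of 6 over all promoters. Their observed over expected ratio was 0.586, 0.554 and 0.998 at Mycn, Mycl and Bmyc, against a median of 0.378. Bmyc was at percentile 94.1 of all promoters by this ratio. These letters describe the windows and show no binding.

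Mycl lies on chromosome 4 from 122995588 to 123002490, with the start used here inside the span, at 122995931 on the plus strand. H3K27me3 covered 3281 bp in KO_399 and 5952 bp in KO_401, against 6142 bp in WT_407 and 6320 bp in WT_409. Both KO libraries were below both WT libraries, KO_401 by 190 bp. The means were 4617 ± 1889 bp in KO and 6231 ± 126 bp in WT (SD, n = 2 each), a difference of -1615 bp that is smaller than the SD of the KO mice. KO stood at 74.1% of WT, with KO_399 at 52.7% and KO_401 at 95.5%. In KO_399 the domain was broken into peaks of 2414 and 867 bp, and its last base lay 3112 bp downstream of the start, against 4919, 4935 and 4670 bp in KO_401, WT_407 and WT_409.

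H3K4me3 at Mycl covered 1882 bp in KO_399 and 1750 bp in KO_401, against 1756 bp in WT_407 and 1858 bp in WT_409. The groups overlapped, and the means were 1816 ± 93.3 bp in KO and 1807 ± 72.1 bp in WT (SD, n = 2 each). The H3K4me3 peak lay almost wholly inside the H3K27me3 domain. Of its bases, 94.5% were under H3K27me3 in KO_399 and 100% in KO_401, WT_407 and WT_409. Unlike at Mycn, the summits of both marks were close to the start. The H3K4me3 summit lay 37 and 67 bp downstream in KO_399 and KO_401, and 410 and 382 bp in WT_407 and WT_409. The H3K27me3 summit lay 741 and 502 bp downstream in KO_399 and KO_401, and 463 and 722 bp in WT_407 and WT_409. Mycl had a strong H3K27me3 peak within each list, at percentile 86.0 in KO_399, 91.7 in KO_401, 95.8 in WT_407 and 96.5 in WT_409 by −log10 q.

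Bmyc, the shortest of the 4 genes, lies on chromosome 2 from 25706879 to 25707721 on the plus strand. H3K27me3 covered none of its window in KO_399 and KO_401, against 1753 bp in WT_407 and 1976 bp in WT_409. The groups did not overlap. H3K27me3 listed in both WT libraries and neither KO library was found at 8.26% of the 7375 genes with the mark in any library. The WT peaks were of middle strength, at percentile 51.5 in WT_407 and 58.7 in WT_409 by −log10 q. Their summits held 29 and 42 reads in WT_407 and WT_409. A fold of 5 over the background needed 20.5 reads in KO_399 and 22.4 in KO_401. A weaker peak in KO would therefore not be listed. With a minimum fold of 8 the Bmyc peak was left in WT_409 alone, and with the lists trimmed to equal covered length none was left.

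H3K4me3 stayed at the Bmyc start in every library, with 1759 bp in KO_399 and 1302 bp in KO_401, against 1523 bp in WT_407 and 1275 bp in WT_409. The groups overlapped, at 1531 ± 323 bp in KO and 1399 ± 175 bp in WT (SD, n = 2 each). In WT the peak was largely under H3K27me3 as well, by 72.4% of its bases in WT_407 and 100% in WT_409, against 0 in both KO libraries. Bmyc was therefore bivalent by the lists in WT and carried H3K4me3 alone in KO.

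Over the family, H3K27me3 was shorter in both KO libraries at 3 of the 3 genes that had it. This is read against 71.2% of the 7375 genes with the mark, so it does not set the family apart. With 1 library left out the count of 3 could not fall, because groups that do not overlap stay apart when a library is removed. It stayed at 3, beside 71.4% of genes without KO_399, 84.6% without KO_401, 83.2% without WT_407 and 84.7% without WT_409. Mycn was at percentile 59.9 and Mycl at 76.5 of all genes by the share of WT length left in KO. With the lists trimmed to equal covered length only Mycl remained shorter in both KO, while Mycn averaged 4557 bp in KO and 7123 bp in WT with overlapping libraries. H3K4me3 was longer in both KO libraries at 1 of the 4 members, Myc, against 21.7% of the 15693 genes with that mark. Shorter H3K4me3 in both KO libraries was found at 0 of 4, against 3.54%. The longer count too could not fall with a library left out, and without KO_399 it was 1, against 23.0%. Without KO_401 H3K4me3 was longer in KO at 4 of 4, against 76.2% of genes. Without WT_407 it was longer at 2 (Myc and Bmyc), against 37.2%, and without WT_409 at 2 (Myc and Mycn), against 43.7%.

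**Figure D3:**
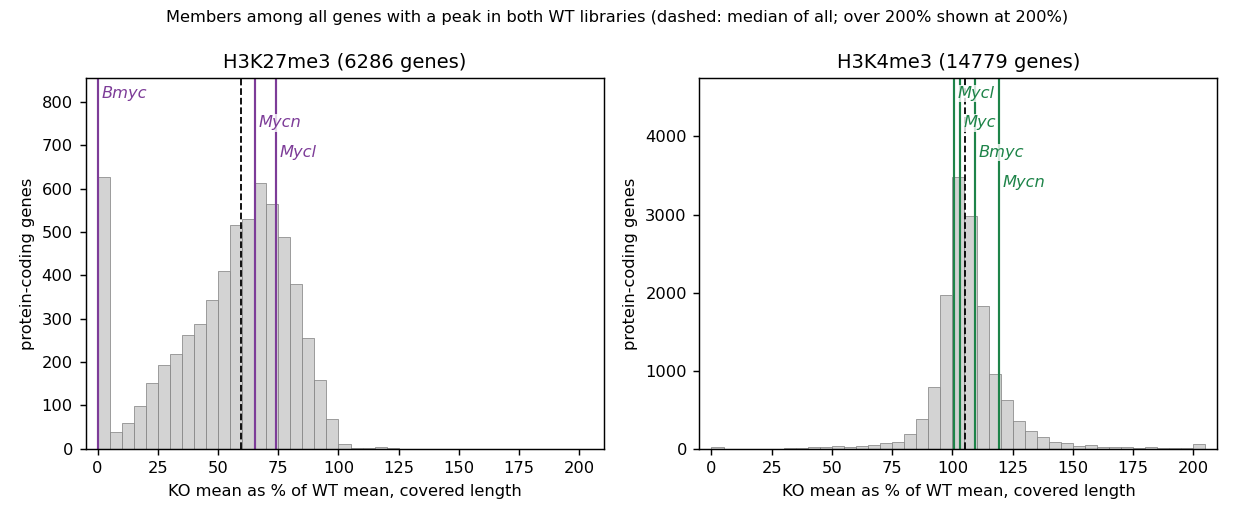
Covered length in KO as a percentage of the WT mean, for all protein-coding genes with a peak of the mark in both WT libraries, as a histogram with the 4 Myc family genes as coloured lines and the median of all genes dashed. For H3K27me3, Mycn (65.2%) and Mycl (74.1%) lie above the median of 59.4%, Mycl beyond the upper quartile of 73.2%, and Bmyc lies at 0. For H3K4me3 all members lie between 100% and 119%.

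The surroundings of the genes differed. Myc stands in a gene desert. Its nearest protein-coding neighbours were A1bg, 1064.1 kb below, and Gsdmc, 1785.6 kb above. Within 2 Mb on either side, neither KO library had an H3K27me3 peak. WT_407 had 1 of 463 bp at Gsdmcl2, and WT_409 had 1 of 882 bp at the lower end of Pvt1. Around Mycl, in contrast, 30 and 38 H3K27me3 peaks were listed in KO_399 and KO_401 and 62 and 47 in WT_407 and WT_409 between 10 kb and 2 Mb. Around Mycn there were 4 and 7 in KO_399 and KO_401 and 9 and 6 in WT_407 and WT_409.

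Pvt1 is a long noncoding RNA gene that begins 47.6 kb above Myc, and one of its isoforms is known to be induced by p53. H3K4me3 at its lower end covered 2846 bp in KO_399 and 2447 bp in KO_401, against 1363 bp in WT_407 and 1321 bp in WT_409. The groups did not overlap, and the means were 2647 ± 282 bp in KO and 1342 ± 29.7 bp in WT (SD, n = 2 each). The peak listed in all 4 libraries covered 1483 bp in KO_399 and 1415 bp in KO_401, against 1363 bp in WT_407 and 1321 bp in WT_409. The rest of the added length was a separate peak of 1363 bp in KO_399 and 1032 bp in KO_401 that no WT library listed. This separate peak lay 1126 to 2488 bp inside Pvt1, after a gap of 95 bp from the region of the shared peak. Of 30534 merged H3K4me3 regions, 2.04% were in both KO and neither WT library. The authors' fold of this peak was 9.39 in KO_399 and 8.53 in KO_401.

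A further 9 of the 13 H3K4me3 regions within 2 Mb of Myc had no annotated gene end within 2 kb. A distant enhancer cluster above Myc is known to drive its transcription in blood stem and progenitor cells. Of the 9, 4 were listed in all 4 libraries, of which 2 lay outside any annotated gene. The one 1657 kb away covered 1316 bp in KO_399 and 1232 bp in KO_401, against 1136 bp in WT_407 and 1155 bp in WT_409. The one 1714 kb away covered 768 bp in both KO libraries, against 654 bp in WT_407 and 571 bp in WT_409. In both regions each KO library had more covered bases than either WT library, as in 18.0% of all merged H3K4me3 regions. The 2 others overlapped between the groups. The one 1905 kb away, within Gsdmc4, covered 582 bp in KO_399 and 488 bp in KO_401, against 545 bp in WT_407 and 523 bp in WT_409. The one 1995 kb away, within Cyrib, covered 1267 bp in KO_399 and 627 bp in KO_401, against 940 bp in WT_407 and 708 bp in WT_409. Whether any of them belongs to the known cluster was not tested.

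**Figure D4:**
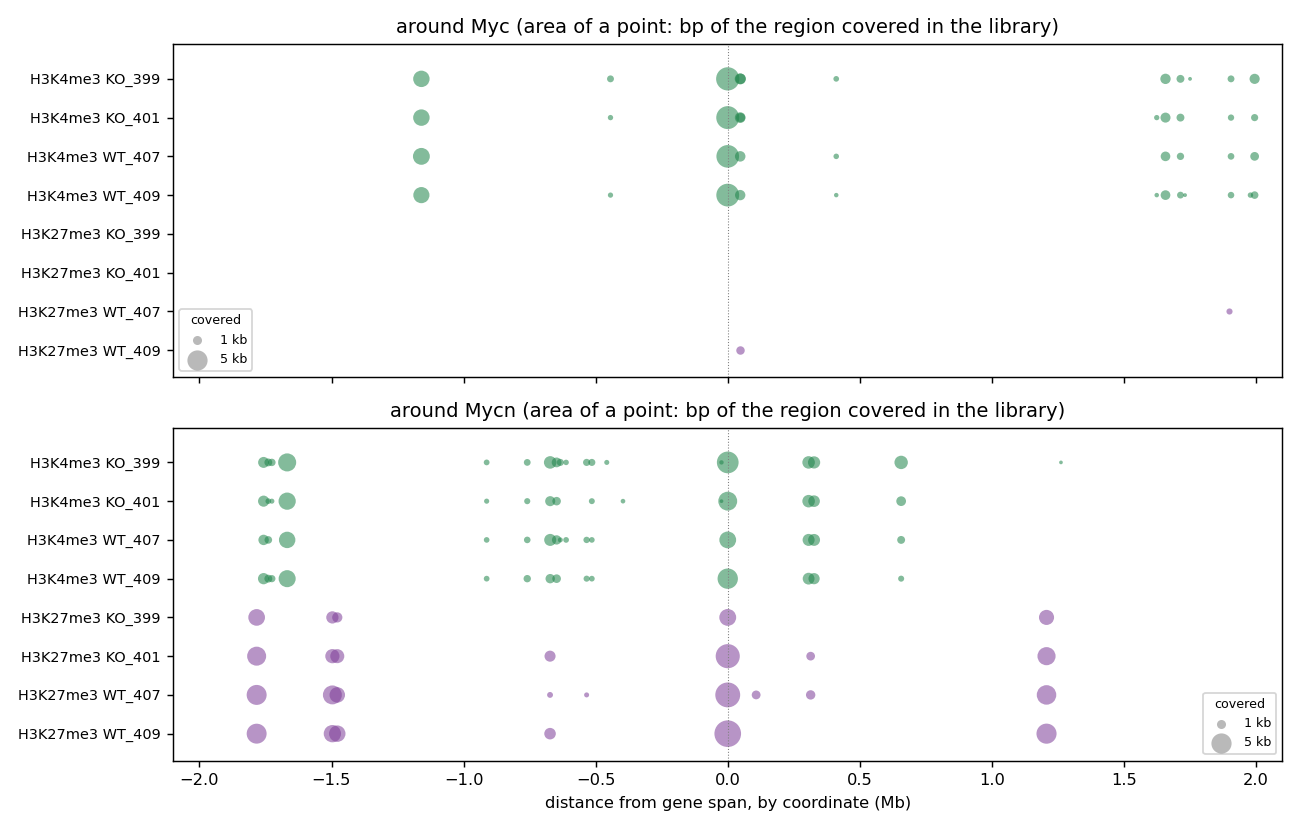
Merged regions within 2 Mb of Myc (top) and Mycn (bottom), by distance in Mb from the gene span along the chromosome, with 1 row per library and KO rows above WT rows. Points in green are H3K4me3 and in purple H3K27me3, with the area of a point in proportion to the bases covered. Around Myc the H3K27me3 rows are empty in KO, and H3K4me3 points gather at Pvt1 and far above the gene.

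Near Mycn, H3K4me3 in both KO libraries and neither WT library was found 23.7 kb below the gene, at Gm40271 and Rpl36-ps3, with 234 bp in KO_399 and 170 bp in KO_401. Its fold was 7.67 in KO_399 and 5.46 in KO_401, the latter close to the limit of 5 for a listed peak. Such a pattern was found at 2.04% of 30534 merged H3K4me3 regions. A region within Nbas, 656 kb above Mycn, covered 2205 bp in KO_399 and 1162 bp in KO_401, against 766 bp in WT_407 and 449 bp in WT_409. The groups did not overlap there, as in the 18.0% of merged H3K4me3 regions that were longer in both KO libraries. Lratd1, 1207 kb above Mycn, had H3K27me3 of 2793 bp in KO_399 and 4029 bp in KO_401, against 4670 bp in WT_407 and 4961 bp in WT_409. Shorter H3K27me3 in both KO libraries was found at 50.2% of 12219 merged regions. An H3K4me3 peak 11.5 kb below Mycl, just outside the window and at no annotated gene end, was listed in every library. It covered 1365 bp in KO_399 and 1218 bp in KO_401, against 1387 bp in WT_407 and 1086 bp in WT_409, so the groups overlapped.

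The MAX network holds the partners and antagonists of Myc proteins, and all 10 of its genes had H3K4me3 in all 4 libraries. This share and those of the lists below are to be read against 14627 of 21887 protein-coding genes. Max, the obligate partner, had 8995 and 7142 bp in KO_399 and KO_401, against 5686 bp in WT_407 and 7309 bp in WT_409, so the groups overlapped. Longer H3K4me3 in both KO libraries was found at 2 of 10, the repressors Mxd3 (9157 and 7933 bp in KO, 7795 and 7805 bp in WT) and Mxd4 (6439 and 6044 bp in KO, 5737 and 5484 bp in WT). None was shorter in both. H3K27me3 lay within 10 kb of 3 of the 10. Mlxipl, a glucose-responsive relative that pairs with Mlx, had 4596 and 8204 bp in KO_399 and KO_401, against 14808 bp in WT_407 and 14832 bp in WT_409. Mga, which joins Max in a repressive complex, had none in KO_399 and 1882 bp in KO_401, against 2525 bp in WT_407 and 3464 bp in WT_409. Both were shorter in both KO libraries, a count of 2 of 3 beside 71.2% of all genes with the mark, and of 0 with the lists trimmed to equal covered length.

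Of 17 genes for Myc cofactors and turnover, all had H3K4me3 in every library, and 4 were longer in both KO libraries. These were the ATPases Ruvbl1 and Ruvbl2, the acetyltransferase Kat2a and the elongation kinase Cdk9. Kat2a had 8652 and 8177 bp in KO_399 and KO_401, against 5917 and 6631 bp in WT_407 and WT_409. Ruvbl2 also had H3K27me3 in every library, with 6558 and 7626 bp in KO and 7798 and 7326 bp in WT, where the groups overlapped. H3K27me3 was shorter in both KO libraries at 2 of the 4 genes that had any, Trrap and Ruvbl1. This share is below the 71.2% of all genes with the mark. A window of 10 kb can take in a neighbour's mark, and the count was 1 within 2 kb and 0 with the lists trimmed to equal covered length.

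Of 28 well known Myc targets, again all had H3K4me3 in every library. Hspd1 and Hspe1 lie side by side and had the same covered lengths, yet count as 2 of the 28. H3K4me3 was compared between KO and WT at each target. It was longer in both KO libraries at 3, the cell-cycle genes Cdk4 and Ccnd2 and the mitochondrial factor Tfam, and shorter at 1, the kinase gene Nme2 (1859 and 1839 bp in KO, 1945 and 1911 bp in WT). The cyclin gene Ccnd2 had 8355 and 7395 bp of H3K4me3 in KO_399 and KO_401, against 7161 and 6606 bp in WT_407 and WT_409. Its H3K27me3 was 4826 and 6869 bp in KO_399 and KO_401, against 7181 and 10444 bp in WT_407 and WT_409. H3K27me3 was shorter in both KO libraries at 5 of the 9 targets that had any, beside 71.2% of all genes with the mark. The count was 2 within 2 kb and 2 with the lists trimmed to equal covered length. The median H3K4me3 length in KO was 105% of WT over the targets, 105% over the cofactors and 109% over the MAX network, beside 105% over all genes. The shares longer in both KO libraries, 2 of 10, 4 of 17 and 3 of 28, are to be read against 21.7% of genes. The counts were 2, 4 and 4 without KO_399 and 9, 17 and 23 without KO_401. Without WT_407 they were 4, 7 and 10, and without WT_409 they were 6, 8 and 9. Over all genes these settings gave 23.0%, 76.2%, 37.2% and 43.7%. Leaving out a library cannot lower such counts.

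Among 8 other zipper factors that bind E-boxes, such as Usf1 and Mitf, all had H3K4me3 in every library, and Srebf2 alone had any H3K27me3. It covered 3214 and 4380 bp in KO_399 and KO_401, against 7335 and 4871 bp in WT_407 and WT_409. Shorter H3K27me3 in both KO libraries was found at 1 of 1 within 10 kb, beside 71.2% of all genes with the mark. The count was 0 within 2 kb. H3K27me3 was thus found within 10 kb of 3 of 4 Myc family genes and 1 of 8 of these relatives. Over all protein-coding genes it was found at 7375 of 21887. The difference was not tested because the members were chosen with these values known.

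By covered length of both marks over the 8 libraries, on a scale of log10 of the length plus 100 bp, the genes most like Myc were Mettl16, Uba3, Nosip, Plod1 and Map3k11. Their root mean square difference from it was 0.00374 to 0.00539. Those most like Mycn were Hes5, Thoc6, Ntn3, Lin28a and Lbx2 (0.0496 to 0.0710). Among those closest to Mycl were Ddx43, Elp4, Timm50 and Tppp (0.0228 to 0.0368), and Bmyc to Rhbdd1, Fahd2a, Plcb1, Gltpd2 and Ropn1 (0.0450 to 0.0578). Hes5, a repressor in the Notch pathway, had 3958 and 6158 bp of H3K27me3 in KO_399 and KO_401, against 8166 and 8541 bp in WT_407 and WT_409. Rhbdd1 had none in KO, against 1814 and 1613 bp in WT_407 and WT_409, and H3K4me3 of 1499 to 1624 bp over the 4 libraries. The libraries are shared by all genes, so these likenesses describe lengths alone.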

How the data were processed

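H3K27me3 and H3K4me3 were measured by chromatin immunoprecipitation and sequencing in 8 libraries, 1 for each mark in each mouse. The 4 input samples were not used here. Per the labels' protocols, reads of 75 bp came from formaldehyde-fixed, sonicated chromatin. The submitters' processing notes name MACS2, Bowtie2, deepTools, FastQC, Trim Galore and SAMtools, and the build mm10. Versions, and the use of input as a control, are not given in the sources used here. Each deposited list held a score, a fold (the ratio of the summit pileup to its background) and the −log10 p-value and q-value of each peak, called per library. Some alternative settings put the same minimum fold or −log10 q on every list, although the libraries differed in depth. Otherwise these deposited values were used only within a list. Every fold exceeded 5.

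Read totals were not in the lists. Summit pileup and background were solved from the fold and −log10 p (within 0.001 for 100% of peaks in each library), and the most frequent background stands for depth. Covered length counted bases under merged peaks within 10 kb of a gene span of RefSeq GRCm38.p6, whose coordinates are those of mm10. An overlap of 1 bp counted. Peaks of a mark that touched in any library were merged into regions. Scripts used Python 3.11.15, numpy 2.4.6, pandas 2.3.3 and scipy 1.17.1, and were tested on simulated data. No test was run. With 2 against 2 mice, an exact permutation test cannot give a p below 0.333. Values measure the spread between 2 mice only. Members and lists were chosen with earlier results of these data known. Genes were named as members, list members, neighbours, markers or the 5 nearest in pattern of each member, of which 1 is not reported here; Pvt1, Gm40271, Nbas, Lratd1 and the distant regions were chosen after their values were seen.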

Additional observations from a re-analysis of the deposited data

How the results depend on the processing

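The number of members with shorter H3K27me3 in both KO libraries was 3. It was 1 with the lists trimmed to equal covered length, which leaves fewer peaks in WT, and 2 with a fold of at least 8. It was 3 with windows of 2, 5 or 25 kb, with a minimum −log10 q of 10 and with summits inside the window. It was also 3 with the lists trimmed to equal peak numbers. Without any single library it was 3 as well, where it could not fall. The number with longer H3K4me3 in both KO libraries was 1. It was 2 with a minimum −log10 q of 10, 2 with equal covered length (Myc and Mycn in both), and 1 to 4 with 1 library left out, the 4 being without KO_401. The H3K4me3 differences of Mycl and Bmyc, whose groups overlapped, changed sign with 1 library left out: Mycl from 9 bp to -57 bp without KO_399 and -42 bp without WT_407, and Bmyc from 131.5 bp to -97 bp without KO_399. In each of these settings Myc was among the members longer in KO, which leaving out a library could not change. The cause of these changes was not tested. No difference between groups that did not overlap changed sign under the alternatives run. With a library left out such a change was impossible, so those settings do not check it. No paired analysis was possible because the KO and WT mice share no number in the labels. Depth limits the lists to summits of 13.7 to 22.4 reads or more.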
